A study of Mus musculus with 2 samples.

Results

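Endothelial nuclei of the injured mouse spinal cord were picked from single-nucleus RNA counts by transcripts that line blood vessels. A nucleus was taken when at least 4 unique molecular identifiers (UMIs, each standing for 1 captured RNA molecule) fell on Flt1, Mecom, Ptprb, Cldn5, Cdh5 and Cyyr1 together and at least 2 of these 6 genes were detected. It was left out when it held more than 5 UMIs of the neuronal genes Snhg11, Rbfox3 and Syt1, more than 2 of the mural genes Rgs5, Abcc9 and Notch3, or more than 2 of the fibroblast genes Col1a1, Col1a2 and Dcn. In all, 381 of 31743 nuclei met the rule, 147 of 14794 in the PBS library and 234 of 16949 in the AEVs library.

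The study gave athlete-derived extracellular vesicles (AEVs) to wild-type C57BL/6 mice of 6 to 8 weeks with a contusion of the cord at thoracic level 10, made by a 5 g rod of 1 mm diameter falling from 6 cm. The AEVs mice received vesicles with 100 µg of protein in 100 µL of PBS by tail vein on each of 5 days after the injury, and the PBS mice received 100 µL of PBS alone. Antibiotics before and for 5 days after surgery and bladder drainage were common to both groups. The cord was frozen on day 7, and nuclei of 3 mice per group were pooled into 1 library, so the data hold no uninjured cord and no replicate. Every interval below is a 95% interval of counting error alone, and no difference between the libraries could be tested against the spread between mice.

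Endothelial cells form the inner wall of blood vessels. In the cord they also form the blood-spinal cord barrier, in which tight junctions seal the gaps between cells, vesicle traffic is held low and dedicated transporters carry nutrients and drugs across. Gene use shifts along the vessel from artery to capillary to vein, and veins are the usual site where white blood cells leave the blood. After a contusion, vessels at the injury leak and are rebuilt.

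Kept nuclei held 81216432 PBS and 81746291 AEVs UMIs, with medians of 2704.5 and 2573 UMIs a nucleus. The libraries shared 170 barcodes. No barcode was an endothelial nucleus in both, and 2 AEVs members had a barcode that also occurred in the PBS library. Endothelial nuclei were shallower than the rest, at a median of 1748 UMIs in PBS and 1488 in AEVs against 2724 and 2595 in other nuclei. Their summed UMIs came to 322854 and 467287, which set the precision of every level below. Levels are given in CPM, a gene's UMIs for every 1000000 UMIs of the endothelial nuclei of a library.

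The label held against marker genes that the rule did not use. All 20 of those endothelial markers, among them Pecam1, Tek, Erg and Vwf, were measured, and together they stood at 9685 CPM in PBS and 13125 CPM in AEVs members against 279 and 235 CPM in nuclei outside the candidates. Of the rule genes, Flt1, a VEGF receptor, was found in 125 of 147 PBS and 196 of 234 AEVs members, and Cldn5, the main claudin of barrier junctions, in 109 and 166. At the edge of the rule, 11 PBS and 14 AEVs nuclei had exactly 4 marker UMIs, and 11 and 27 nuclei with 3 UMIs fell just outside. The markers outside the rule stood at 3226 CPM in PBS and 7827 CPM in AEVs just inside the edge, and at 2690 and 3622 CPM just outside it.

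The members were not pure. Clustering the 381 nuclei by their own variable genes gave 6 sub-clusters, numbered 0 to 5. In sub-clusters 2, 3 and 4 the leading genes belonged to other cells: glial and Schwann cell genes in 50 nuclei, myeloid genes in 16 and oligodendrocyte genes in 36. Endothelial markers outside the rule summed to 4398, 6665 and 5865 CPM there, against 21244 CPM in sub-cluster 0. These mixed sub-clusters held 48 of 147 PBS members, or 32.7% (25.2 to 40.9), and 54 of 234 AEVs members, or 23.1% (17.8 to 29.0). All 19 members that Scrublet called as doublets, 4 in PBS and 15 in AEVs, lay in them. Results are therefore also given for the 99 PBS and 180 AEVs members outside them, a choice made after the data were seen.

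The other 3 sub-clusters followed the position along the vessel. Sub-cluster 0, with 46 PBS and 76 AEVs nuclei, was led by Ism1, Car4 and Slco1c1, and its capillary list summed to 11194 CPM, so it is called capillary-like. Sub-cluster 5, with 3 and 15 nuclei, was led by Cytl1, Fbln5 and Mgp, and its arterial list summed to 40380 CPM, so it is called arterial-like. Sub-cluster 1, with 50 and 89 nuclei, had the highest sum of venous genes, at 19442 CPM. It is kept by number, because its leading gene was Ccl21a, a lymphatic chemokine, from 69 UMIs in only 2 PBS nuclei. The AEVs members held 0 UMIs of Ccl21a.

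**Figure D1:**
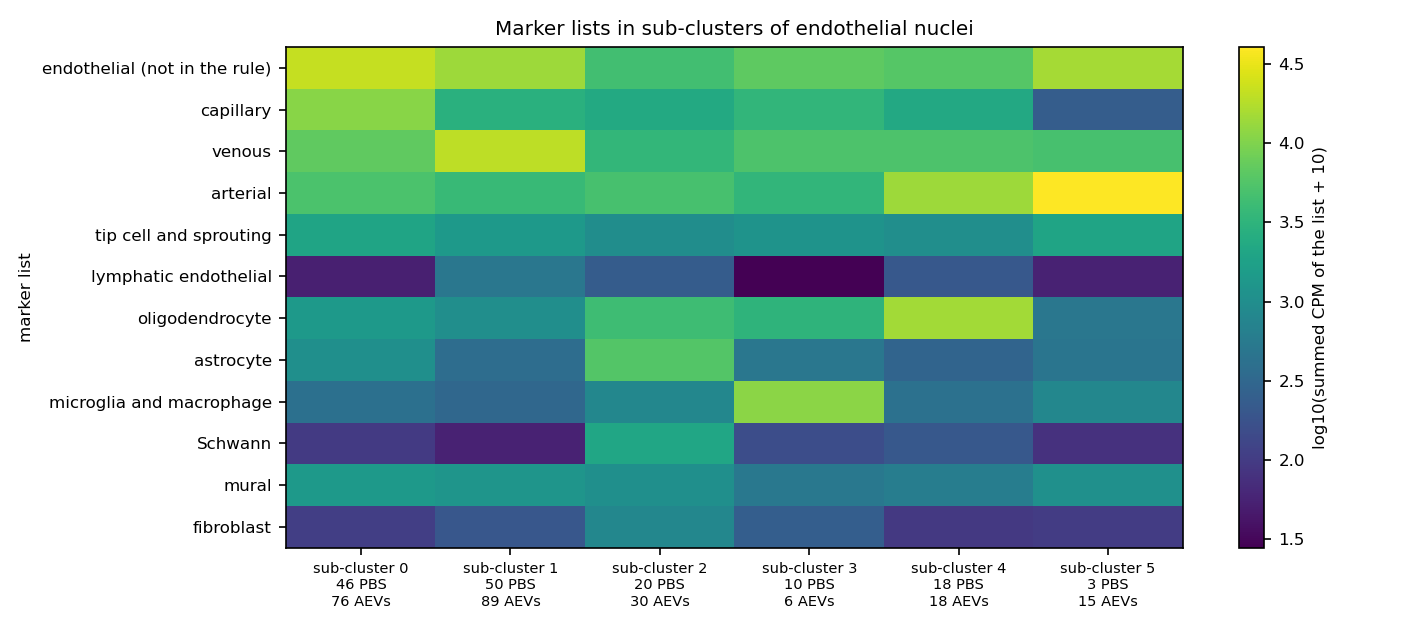
Summed level of each marker list (rows, log10 scale) in the 6 sub-clusters of endothelial nuclei (columns, with the nuclei of each library). Sub-cluster 0 is highest for capillary genes, 1 for venous genes and 5 for arterial genes, and sub-clusters 2, 3 and 4 carry astrocyte and Schwann, myeloid and oligodendrocyte genes.

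Endothelial nuclei made up a larger share of the AEVs library under the rule, but the size of that difference turned on the fibroblast limit. They were 0.994% of kept PBS nuclei (0.840 to 1.17) and 1.38% of kept AEVs nuclei (1.21 to 1.57), a ratio of shares of 1.39 (1.13 to 1.72). Before the limits on other cells' genes there were 292 PBS and 369 AEVs candidates, 1.97% and 2.18% of nuclei, a ratio of 1.10 (0.943 to 1.29). The limits removed 145 PBS candidates, or 49.7%, and 135 AEVs candidates, or 36.6%.

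The limit on fibroblast genes was exceeded by 78 PBS and 42 AEVs candidates, the mural limit by 68 and 66, and the neuron limit by 40 and 68. Without the fibroblast limit alone the ratio was 1.11 (0.915 to 1.34), and without the mural limit alone 1.22 (1.01 to 1.47). Fibroblast nuclei themselves, picked by the same collagen genes, numbered 782 in PBS and 299 in AEVs, and mural nuclei 39 and 50. The part of collagen RNA from other cells in the share was not tested. Leaving out the mixed sub-clusters gave 1.59 (1.24 to 2.05).

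**Figure D2:**
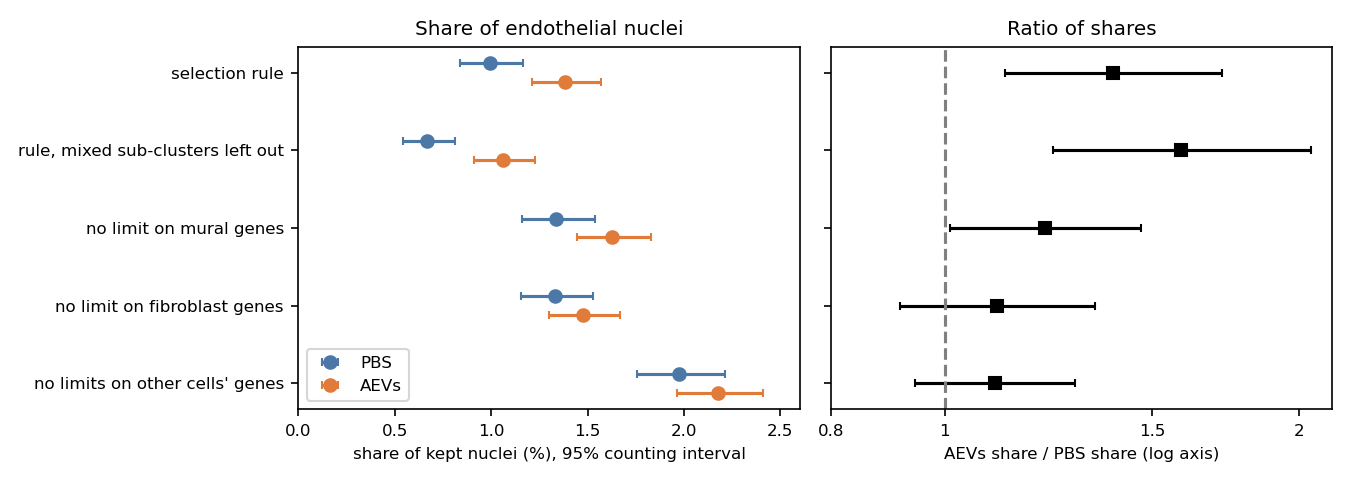
Left, endothelial nuclei as a share of kept nuclei (%) in PBS (blue) and AEVs (orange) under the rule and under changed limits; right, the ratio of the shares on a log axis. Bars are 95% counting intervals, and the ratio of 1.39 under the rule comes to 1.11 with no fibroblast limit.

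Under the rule for named genes, 4 of the 10 lowest ratios of AEVs to PBS levels were those of immediate early genes, a set that cells switch on within minutes of a stimulus and that includes the transcription factors Fos, Egr1 and Nr4a1. The endothelial gene Apold1, which is induced with them, had 114 UMIs in 49 of 147 PBS nuclei and 10 UMIs in 10 of 234 AEVs nuclei. Its level was 353 CPM (291 to 424) in PBS and 21.4 CPM (10.3 to 39.4) in AEVs, a log2 ratio of -4.04 (-5.14 to -3.11). No AEVs nucleus held more than 1 UMI of Apold1, while the highest PBS nucleus held 8.

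The transcription factors moved with Apold1. Fos had 36 UMIs in 25 PBS nuclei and 3 in 3 AEVs nuclei, a log2 ratio of -4.12 (-6.46 to -2.46). Egr1 had 46 UMIs in 35 PBS nuclei and 4 in 4 AEVs nuclei, a log2 ratio of -4.06 (-5.99 to -2.60). Nr4a1 had 36 UMIs in 26 PBS nuclei and 5 in AEVs, all 5 in 1 nucleus, a log2 ratio of -3.38 (-5.09 to -2.03). These 4 genes were thus spread over many PBS nuclei and nearly lacking from AEVs nuclei. Without limits on other cells' genes the log2 ratios were smaller, at -1.57 for Fos, -1.67 for Egr1, -1.43 for Nr4a1 and -3.12 for Apold1.

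The promoters of Fos, Nr4a1 and Apold1 are shown because their transcripts were low together in AEVs endothelial nuclei. Egr1 was low as well, but its promoter is not shown. Each run is the 250 bases before the RefSeq start in the GRCm38.p6 build, on the plus strand, at chr12:85473640-85473889 for Fos, chr15:101266596-101266845 for Nr4a1 and chr6:134981751-134982000 for Apold1. A second gene annotation starts Fos at 85473890, directly after its run. It starts Nr4a1 at 101254269 and Apold1 at 134981718, so these 2 runs lie inside the genes as annotated there. Bases before those starts were not searched. Capitals mark TGACG on either strand, the core that cyclic AMP response element binding proteins recognise.
Fos: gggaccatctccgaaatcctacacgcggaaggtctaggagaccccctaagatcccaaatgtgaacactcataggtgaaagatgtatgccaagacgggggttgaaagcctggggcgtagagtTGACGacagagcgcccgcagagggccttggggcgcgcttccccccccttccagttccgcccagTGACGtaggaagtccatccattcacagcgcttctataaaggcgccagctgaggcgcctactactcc
Nr4a1: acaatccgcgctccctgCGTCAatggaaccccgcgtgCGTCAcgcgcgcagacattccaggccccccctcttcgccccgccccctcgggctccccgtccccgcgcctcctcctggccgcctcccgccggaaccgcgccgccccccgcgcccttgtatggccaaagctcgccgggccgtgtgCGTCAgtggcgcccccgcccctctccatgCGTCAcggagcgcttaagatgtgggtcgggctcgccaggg
Apold1: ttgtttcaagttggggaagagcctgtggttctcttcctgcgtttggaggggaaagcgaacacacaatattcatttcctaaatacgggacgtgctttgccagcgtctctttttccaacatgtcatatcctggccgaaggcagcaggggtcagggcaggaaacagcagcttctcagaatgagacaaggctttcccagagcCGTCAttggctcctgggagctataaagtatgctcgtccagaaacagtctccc
The core occurred 2 times before Fos, 4 times before Nr4a1 and 1 time before Apold1, and in 17.8% of all 32851 windows of this length. The whole palindrome TGACGTCA, found in 1.55% of windows, the CArG box bound by serum response factor, in 1.47%, and the AP-1 motif TGANTCA, in 6.75%, had no match in the 3 windows. Bases farther upstream were not searched, so a missing match holds for these 250 bases only. A match of letters is a description of the sequence, and the expression counts do not bear on whether a factor binds there.

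The counts by nucleus describe the same 4 genes, which were named for their low ratios, and add no separate support. In all, 80 of 147 PBS members, or 54.4% (46.0 to 62.6), held at least 1 UMI of Fos, Egr1, Apold1 or Nr4a1, against 17 of 234 AEVs members, or 7.26% (4.29 to 11.4). With each nucleus thinned to 1000 UMIs, and 32 PBS and 52 AEVs shallower nuclei left out, the shares were 47.8% and 5.49%. Other nuclei thinned to the same depth stood at 5.71% in PBS and 3.19% in AEVs. Apold1 is enriched in vessel cells, so its place among the 4 genes raises the endothelial share over that of other nuclei.

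The difference appeared in each sub-cluster with more than 3 nuclei in both libraries. In the capillary-like sub-cluster 0, 18 of 46 PBS and 6 of 76 AEVs nuclei held such a UMI, and in sub-cluster 1, 32 of 50 and 6 of 89. The mixed sub-clusters showed it too, with 13 of 20 against 1 of 30 in sub-cluster 2, 7 of 10 against 0 of 6 in sub-cluster 3 and 9 of 18 against 2 of 18 in sub-cluster 4. The arterial-like sub-cluster had only 3 PBS nuclei, 1 of them with a UMI, and 2 of 15 in AEVs. Outside the mixed sub-clusters 51.5% of PBS and 7.78% of AEVs members held a UMI.

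The same genes were also lower in the AEVs library in nuclei that the rule did not pick, by a smaller amount. These other nuclei were not free of endothelium, since they include the 145 PBS and 135 AEVs candidates that the limits removed. In PBS they held 1474 UMIs of Flt1 and 311 of Apold1, against 697 and 114 in the members. The part of those candidates in the ratios of other nuclei was not tested. In all other nuclei the log2 ratio was -0.93 for Fos, -0.97 for Egr1 and -0.62 for Nr4a1, and Apold1 stood at 3.84 CPM in PBS and 1.92 CPM in AEVs. In fibroblast nuclei it was -1.88 for Fos (-2.31 to -1.47) and -1.17 for Egr1 (-1.56 to -0.79). A high PBS level was not particular to endothelial nuclei: in PBS fibroblast nuclei Fos stood at 209 CPM against 112 in endothelial nuclei, Egr1 at 158 against 142 and Nr4a1 at 105 against 112. Apold1 was 91.8 times higher in PBS members than in other PBS nuclei pooled, but mural nuclei carried it too. They held 12 PBS and 7 AEVs UMIs of it, at 163 and 89.5 CPM, a log2 ratio of -0.86 (-2.45 to 0.60). The AEVs mural level lay above the AEVs endothelial one. The treatment and the pool of mice cannot be told apart, since each group is 1 library.

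Of 23 genes on the list of immediate early and flow-responsive genes, 19 had at least 20 UMIs over both libraries. Of these, 15 were lower in AEVs and 9 were lower by 2-fold or more, where 4.91% of the 7271 genes measured were that much lower. Their median log2 ratio was -0.74 against 0.06 over all genes measured, and it was -1.04 outside the mixed sub-clusters. The list was chosen with earlier results of these data known.

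Further members of the list were lower by 2-fold or more. Dusp1, a phosphatase that shuts off MAP kinases, had 60 PBS and 33 AEVs UMIs, a log2 ratio of -1.40 (-2.05 to -0.76). Jun, the partner of Fos in AP-1, had 55 PBS and 38 AEVs UMIs, a log2 ratio of -1.07 (-1.70 to -0.44). In sub-cluster 0 its ratio was 0.02 (-1.16 to 1.26) and in sub-cluster 1 it was -2.07 (-3.25 to -0.97). Its UMIs in the mixed sub-clusters were 8 and 2, 4 and 0, and 5 and 3. Ier2 stood at -1.29 and Ccn1, a secreted matrix protein, at -2.27, and Zfp36, which destabilises cytokine messages, had 36 PBS and 26 AEVs UMIs.

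Over all members the flow-responsive factors were less different. Klf2, a factor that laminar flow induces, had 198 PBS and 210 AEVs UMIs, a log2 ratio of -0.45 (-0.74 to -0.16), and Klf4 stood at -0.74 (-1.40 to -0.09). Klf4 differed more within the sub-clusters, at 295 CPM in PBS and 91.6 in AEVs in sub-cluster 0. In sub-cluster 1 it stood at 114 and 37.9 CPM. Klf2 stood at 1117 and 672 CPM in sub-cluster 0 and at 797 and 474 CPM in sub-cluster 1. Nos3, the endothelial nitric oxide synthase, stood at 0.21 (-0.32 to 0.75). Klf2 was thus lower by less than 2-fold, and without the fibroblast limit its log2 ratio came to -0.0012.

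Of the 4 genes on the list that were higher, 2 passed 2-fold. Ccn2, a matrix-associated YAP target, had 13 UMIs in 9 PBS nuclei and 122 in 54 AEVs nuclei, a log2 ratio of 2.70 (1.87 to 3.65). In sub-cluster 1 its UMIs were 3 in PBS and 80 in AEVs, a log2 ratio of 3.74 (2.14 to 6.04). The ratio was 1.13 (-0.83 to 3.63) in sub-cluster 0 and, from 4 and 8 UMIs, -1.96 (-3.86 to 0.22) in sub-cluster 5. Fibroblast nuclei carried more Ccn2, 253 CPM in PBS and 484 in AEVs against 40.3 and 261 in endothelial nuclei. Their log2 ratio was 0.94 (0.76 to 1.11). Edn1, which encodes the vasoconstrictor endothelin, had 22 PBS UMIs, 40.9% of them in 1 nucleus, and 90 AEVs UMIs in 60 nuclei. Its level was 2.83-fold higher in AEVs, and its log2 ratio in other nuclei was 1.06.

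**Figure D3:**
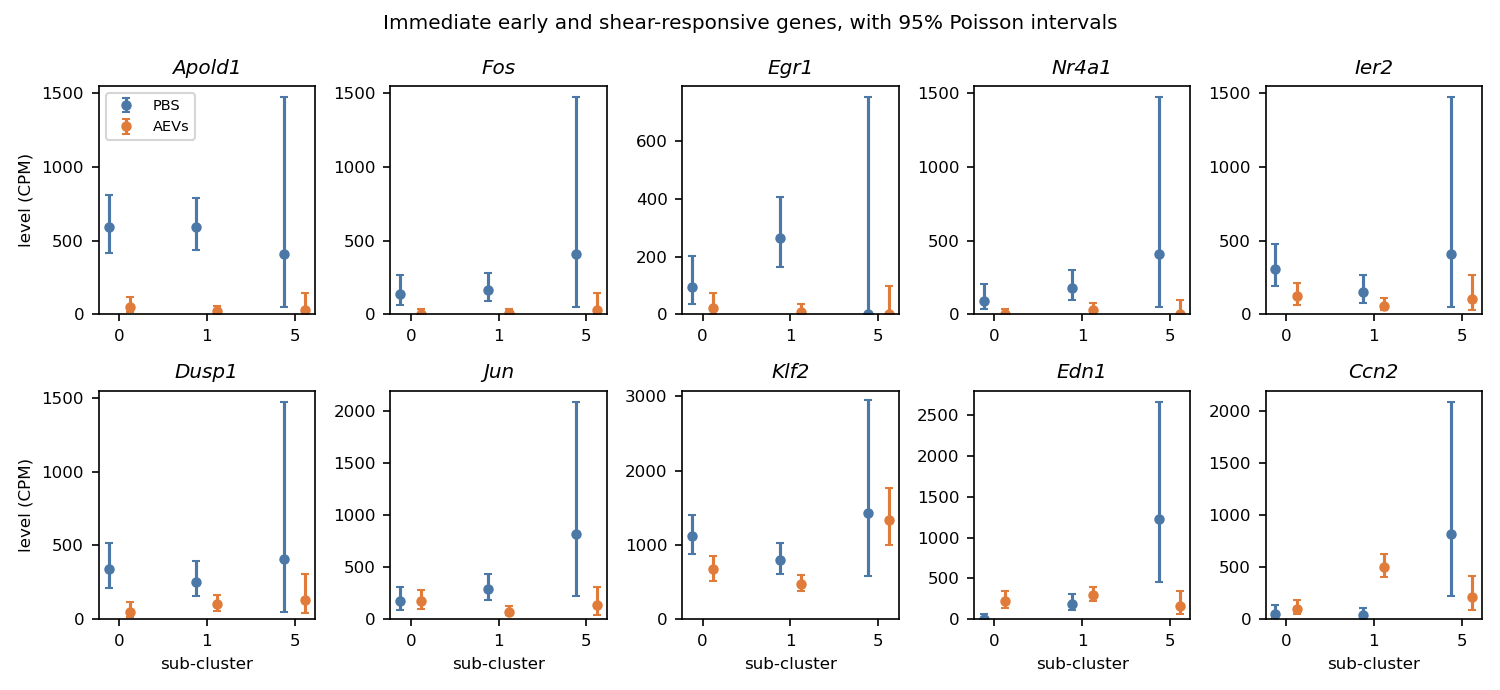
Level (CPM, linear axis from 0) of 10 immediate early and flow-responsive genes in sub-clusters 0, 1 and 5 of endothelial nuclei in PBS (blue) and AEVs (orange), with 95% Poisson intervals. Apold1 is at 590 and 595 CPM in PBS and at 50.9 and 19.0 CPM in AEVs in sub-clusters 0 and 1; sub-cluster 5 has only 3 PBS nuclei and wide bars.

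Over all 7271 genes with at least 20 UMIs, 488, or 6.71%, were at least 2-fold higher in AEVs endothelial nuclei and 357, or 4.91%, at least 2-fold lower. With a counting interval that also excluded equal levels, the counts were 301 (4.14%) and 272 (3.74%). These are counts past a fold between 2 libraries, not tested changes. Leaving out the mixed sub-clusters, 167 of 4669 genes measured were at least 2-fold lower.

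Among the 10 lowest ratios, those beside Fos, Egr1, Apold1 and Nr4a1 came from transcripts in 12 to 20 PBS nuclei. Nckap5 had 98 PBS UMIs, of which 77 were in 1 nucleus, and Nefh, a neurofilament of axons, had 96, of which 69 were in 1 nucleus. Ntsr2, a receptor of astrocytes, had 49 PBS UMIs in 15 nuclei and 7 AEVs UMIs in 4. Tns3 and Chsy3 had 51 and 37 PBS UMIs, with 56.9% and 59.5% of them in 1 nucleus, and Ephb1, a guidance receptor, had 45, of which 9 were in 1 nucleus. Most PBS UMIs of Nckap5, Nefh, Tns3 and Chsy3 thus came from 1 nucleus each. Outside the mixed sub-clusters Nckap5 had 9 PBS and 1 AEVs UMIs, a log2 ratio of -4.16 (-9.61 to -1.31). There Tns3 stood at -2.57 (-5.91 to -0.09), Nefh at -1.35 (-3.01 to 0.24) and Chsy3 at -0.40 (-2.48 to 1.86).

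Lists of other cells differed in both directions. In PBS members 9 of 10 oligodendrocyte markers were higher, and the list summed to 5489 CPM in PBS and 3458 CPM in AEVs. Astrocyte markers summed to 2047 and 1147 CPM and Schwann markers to 722 and 302 CPM. Neuron markers summed to 805 and 599 CPM, myeloid to 1450 and 1091, fibroblast to 344 and 210, mural to 846 and 1203 and erythroid to 316 and 910 CPM. The oligodendrocyte precursor list summed to 412 CPM in PBS and 546 in AEVs, and the ependymal list to 31.0 and 70.6. T and NK markers had 3 and 4 UMIs with 5 of 8 genes at 0. Their part in the endothelial ratios was not tested beyond leaving out the mixed sub-clusters. Of the 20 endothelial markers outside the rule, 16 were higher in AEVs, and 10 of 20 with those sub-clusters left out.

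The 10 highest ratios held genes of contraction, arteries, matrix and cold response. Acta2, smooth muscle actin, had 0 UMIs in PBS and 35 in 12 AEVs nuclei. With PBS set to a floor of 3 UMIs it was 8.06-fold higher, and its counting interval began at a log2 ratio of 2.64. Of the 35 UMIs, 9 lay outside the mixed sub-clusters, where the interval began at -0.008. The log2 ratio of Acta2 in other nuclei was 2.42. Prss23, a secreted protease, and Hrct1 each had 2 PBS and 35 AEVs UMIs, a log2 ratio of 3.60 (1.64 to 6.70). Without limits on other cells' genes the ratio of Prss23 was 1.32 and that of C1qbp 0.90. C1qbp had 3 and 31 UMIs and Mustn1 had 4 and 40. Mural nuclei carried more Hrct1, 136 CPM in PBS and 217 in AEVs against 6.19 and 74.9 in endothelial nuclei. The mural log2 ratio of Hrct1 was 0.68 (-0.53 to 1.97). In mural nuclei Mustn1 had 0 PBS and 19 AEVs UMIs, and Acta2 had 2 and 12. Fibroblast nuclei held Prss23 at 45.7 and 99.8 CPM, a log2 ratio of 1.13 (0.71 to 1.54). In mural nuclei Prss23 stood at -0.09. The part of these cells in the endothelial ratios was not tested.

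Growth factor genes were among them. Vegfc, a ligand of the receptor Flt4, had 3 PBS UMIs and 35 AEVs UMIs in 25 nuclei, a log2 ratio of 3.01 (1.35 to 5.36), against -0.04 in other nuclei, and of 0.58 without limits on other cells' genes. Igfbp3, which binds insulin-like growth factors, had 12 UMIs in 9 PBS nuclei and 118 in 45 AEVs nuclei, a log2 ratio of 2.76 (1.91 to 3.76). Its ratio in other nuclei was 0.76. Fibroblast nuclei carried more Igfbp3, 105 CPM in PBS and 338 in AEVs against 37.2 and 253 in endothelial nuclei. The fibroblast log2 ratio was 1.68 (1.44 to 1.93) for Igfbp3 and -1.33 (-2.19 to -0.56) for Vegfc. Both genes were found in more than 10% of AEVs members and in at most 6.12% of PBS members.

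The cold-inducible RNA-binding genes were higher in AEVs in other nuclei as well. Cirbp had 2 PBS and 34 AEVs UMIs, a log2 ratio of 3.55 (1.59 to 6.66), with 1.58 in other nuclei. Rbm3 had 21 UMIs in 17 PBS nuclei and 118 in 87 AEVs nuclei, a level 3.88-fold higher, with a log2 ratio of 1.44 elsewhere. Heat shock genes lay on the other side. Over both kinds 6 of 9 measured genes were lower, beside 3277 of all 7271 (median -0.84, or -0.17 outside the mixed sub-clusters). The chaperone gene Hsp90aa1 had 174 PBS and 104 AEVs UMIs, a log2 ratio of -1.28 (-1.64 to -0.92), and -0.35 in other nuclei, while Hspa8 stood at -0.85 and Hsph1 at -2.27.

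**Figure D4:**
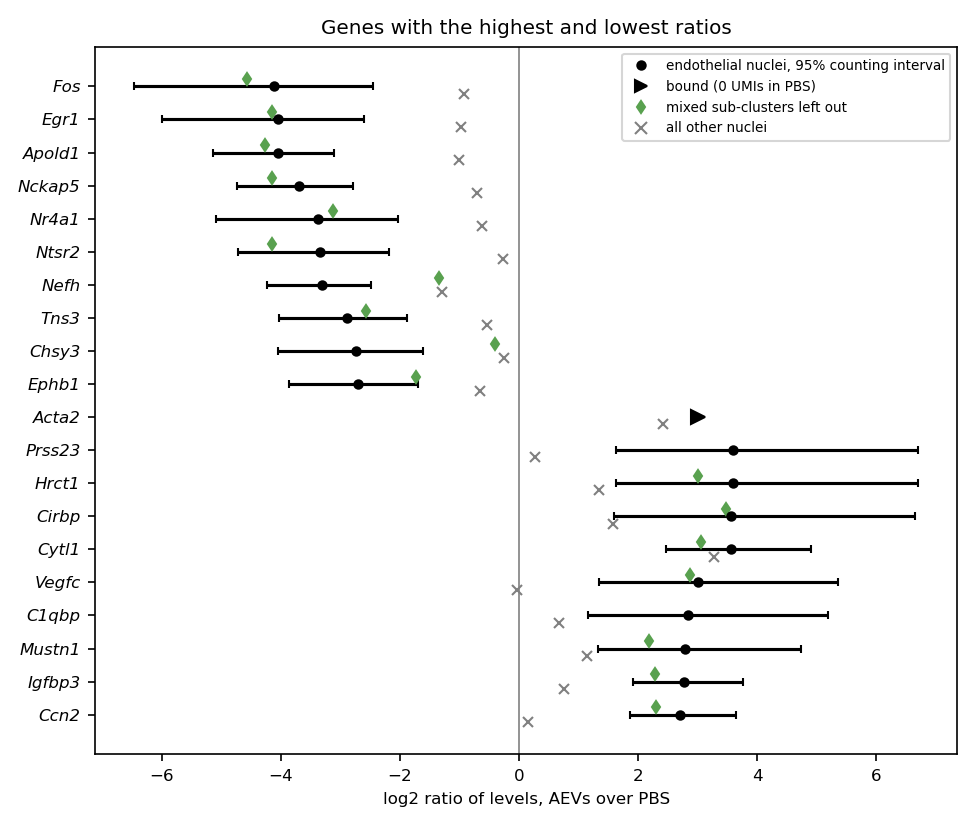
Log2 ratio of levels, AEVs over PBS, for the 10 genes with the lowest and the 10 with the highest ratio in endothelial nuclei (black, 95% counting interval). An arrow marks Acta2 with PBS set to a floor of 3 UMIs. Green diamonds leave out the mixed sub-clusters and grey crosses show all other nuclei; Fos, Egr1 and Apold1 lie near -4 in endothelial nuclei and near -1 in other nuclei.

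The members were read by zonation genes that the rule did not use. Slco1a4, which carries organic anions across the barrier, had 510 UMIs in 102 of 147 PBS nuclei and 1186 in 175 of 234 AEVs nuclei. Its count per nucleus ran from 0 to 18 around a median of 2 in PBS and from 0 to 25 around a median of 4 in AEVs. The PBS range lay wholly within the AEVs range. The levels were 1580 and 2538 CPM, a log2 ratio of 0.68 (0.53 to 0.84).

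Slco1a4 was higher in AEVs within the capillary-like sub-cluster, at 3444 CPM in PBS and 5701 CPM in AEVs, a log2 ratio of 0.73 (0.50 to 0.96). In sub-cluster 1 it stood at 1493 and 2352 CPM, a log2 ratio of 0.66 (0.35 to 0.97). Outside the mixed sub-clusters the ratio was 0.47 (0.29 to 0.65). Thinned to 1000 UMIs, 60.9% of PBS and 73.1% of AEVs members held a UMI of Slco1a4. Its ratio in other nuclei, where it was far lower, was 0.43.

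The capillary genes were split. Of 15 measured, Slco1a4 among them, 7 were higher and 8 lower in AEVs, with a median log2 ratio of -0.03, where 54.9% of all genes measured were higher. Lrp8, a lipoprotein receptor, had 17 PBS and 4 AEVs UMIs, a log2 ratio of -2.62, and Rgcc stood at -1.20 (-2.00 to -0.42). Tfrc, the transferrin receptor, stood at 0.94 (0.03 to 1.94) and Car4, a carbonic anhydrase of capillaries, at -0.06 (-0.79 to 0.70). The summed level of the list was higher in AEVs, 3878 CPM in PBS against 4520 CPM, and Slco1a4 supplied 1186 of its 2112 AEVs UMIs.

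Venous genes were mostly higher in AEVs. Of 16 measured, 13 were higher, against 54.9% of all genes measured, and 4 were at least 2-fold higher, against 6.71%. The median log2 ratio was 0.63. Without the mixed sub-clusters the median was 0.20, with 11 of 16 higher beside 2584 of all 4669 genes measured there. Vcam1, which captures leukocytes through an integrin, had 73 UMIs in 30 PBS nuclei and 325 in 86 AEVs nuclei, a log2 ratio of 1.62 (1.25 to 2.01). Outside the mixed sub-clusters it stood at 1.13 (0.71 to 1.57).

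Vcam1 differed by sub-cluster. In the capillary-like sub-cluster it had 1 UMI in 46 PBS nuclei and 71 UMIs in 11 of 76 AEVs nuclei, and in sub-cluster 1 it had 52 UMIs in 22 of 50 and 149 in 50 of 89. The log2 ratio was 5.54 (3.02 to 10.9) in the former and 0.52 (0.05 to 1.00) in the latter. The capillary-like ratio rests on 1 PBS UMI, and the nuclei with Vcam1 were mainly in sub-cluster 1 in PBS.

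Acute-phase and clotting genes of the venous list were higher as well. Lcn2, an iron-scavenging acute-phase protein, had 130 and 466 UMIs, a log2 ratio of 1.31 (1.02 to 1.60), with 0.77 in other nuclei. Vwf, the clotting carrier stored in endothelial granules, had 244 and 603 UMIs, a log2 ratio of 0.77 (0.55 to 0.99). In sub-cluster 1 Vwf stood at 0.16 (-0.10 to 0.43). The chemokine sink Ackr1 stood at 0.77 overall and at 0.21 outside the mixed sub-clusters.

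Arterial genes were split. Of 17 measured, 10 were higher and 7 lower in AEVs, beside 54.9% of all genes that were higher, with a median of 0.63. At least 2-fold higher were 6 and at least 2-fold lower 3, against 6.71% and 4.91% of all genes. Mgp, an inhibitor of BMP signals and of calcification, had 173 UMIs in 52 PBS nuclei and 1447 in 101 AEVs nuclei, a log2 ratio of 2.53 (2.30 to 2.77). Of the AEVs UMIs, 1074 came from the 15 arterial-like nuclei and 55.6% from 5 nuclei, with 313 in 1. Without sub-cluster 5, Mgp had 125 and 373 UMIs, a log2 ratio of 1.14 (0.85 to 1.45). Cytl1, a secreted cytokine-like protein, had 7 and 119 UMIs, all but 3 of them in the arterial-like sub-cluster.

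Some further arterial genes depended on the same few nuclei, and others did not. Fbln5, an elastic fibre protein, stood at 1.95 with sub-cluster 5 and at 0.15 (-1.50 to 1.92) without it, Bmx at 1.31 and 0.52, and Sox17, an arterial transcription factor, at 0.90 and 0.30. Vegfc kept 2.44 (0.71 to 4.83) and Igfbp3 2.30 (1.37 to 3.36) without it. Dll4, the Notch ligand of arteries and tip cells, had 16 PBS and 7 AEVs UMIs, a log2 ratio of -1.73 (-3.25 to -0.36).

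When each nucleus was given the zone of which it held the most UMIs, with at least 2, the shares were close. Arterial nuclei were 18.4% of PBS and 20.1% of AEVs members, capillary 30.6% and 25.6%, and venous 47.6% and 52.1%. The ratios were 1.09 (0.667 to 1.83), 0.838 (0.560 to 1.26) and 1.09 (0.810 to 1.49), and all 3 intervals held equal shares. With only zone genes at least 4-fold above other nuclei, the arterial count was 7 of 147 and 23 of 234, a ratio of 2.06 (0.857 to 5.70). The arterial list holds Ptgds, with 1127 AEVs UMIs in the mixed sub-cluster 4, and outside the mixed sub-clusters arterial nuclei were 11.1% of PBS and 14.4% of AEVs members. The classes are cut from counts of a few UMIs and are ranges, not types.

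Junction and barrier genes differed little. Of 19 junction genes measured, 14 were higher, against 54.9% of all genes measured, and none past 2-fold, with a median log2 ratio of 0.19. Without the mixed sub-clusters 9 of 18 were higher and the median was -0.02. Cldn5, which the selection rule used and which is given as a description, had 330 PBS and 687 AEVs UMIs, a log2 ratio of 0.52 (0.33 to 0.72), with 0.32 (0.10 to 0.54) outside the mixed sub-clusters. Tjp1, a scaffold of tight junctions, stood at 0.19, Ocln, their occludin, at -0.24 (-0.81 to 0.33) and Magi1 at -0.68 (-0.99 to -0.36).

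Transporters of the barrier were close to even. Of 28 measured, 16 were higher and 12 lower, near the 54.9% of all genes that were higher, with a median of 0.09. The glucose carrier Slc2a1 had 347 and 611 UMIs, a log2 ratio of 0.28 (0.09 to 0.48), the efflux pump Abcb1a stood at 0.05 (-0.16 to 0.26) and Abcg2 at 0.26 (0.03 to 0.49). Mfsd2a, a lipid carrier that restrains vesicle transport, had 16 and 13 UMIs, a log2 ratio of -0.83 (-2.01 to 0.32). Among caveolar and uptake genes 9 of 14 were lower, beside 3277 of all 7271 genes measured, with a median of -0.14. Cav1, the caveolar coat, stood at -0.11. Ehd4, which acts in vesicle recycling, was higher, with 25 and 114 UMIs, a log2 ratio of 1.66 (1.02 to 2.34).

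Signals that build vessels and their barrier were measured through receptors and targets. Of 22 Wnt and barrier induction genes 19 were higher (median 0.23), against 54.9% of all genes measured. Outside the mixed sub-clusters 12 of 20 were higher, near the share of all genes there, 2584 of 4669. Adgra2, a Wnt7 co-receptor, had 14 and 43 UMIs, a log2 ratio of 1.09 (0.19 to 2.07), while its partner Reck stood at 0.23 (-0.55 to 1.04) and the factor Lef1 at -0.17 (-0.41 to 0.07). Among 19 TGF-beta and BMP genes 14 were higher, beside the same 54.9%, with a median of 0.32, and 10 of 13 outside the mixed sub-clusters. Bmp4, a BMP ligand, had 3 and 17 UMIs, a log2 ratio of 1.97 (0.18 to 4.38), and the receptor Acvrl1 stood at 0.78 (0.20 to 1.39). The BMP target Id1 stood at 0.36 (0.12 to 0.59), Tgfbr2 at -0.48 (-0.94 to -0.02) and Smad1 at -0.61 (-1.05 to -0.18).

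VEGF and sprouting genes were split. Of 17 VEGF and angiopoietin genes 9 were higher, near the 54.9% of all genes measured, with a median of 0.20. Outside the mixed sub-clusters 3 of 13 were higher, beside 2584 of all 4669 genes measured there, with a median of -0.23. Of 14 tip cell genes measured 9 were lower, beside 3277 of all 7271 genes measured, with a median of -0.19. The summed list had a log2 ratio of 0.05, with Igfbp3 supplying 118 of its 649 AEVs UMIs. The co-receptor Nrp1 had 62 and 39 UMIs, a log2 ratio of -1.20 (-1.82 to -0.60). Kdr, the main VEGF receptor, had 28 and 62 UMIs, a log2 ratio of 0.61 (-0.05 to 1.31), and Flt1, its decoy and a gene of the selection rule, -0.22 (-0.37 to -0.08). Of 12 Notch genes 6 were higher and 6 lower, near the 54.9% of all genes that were higher. Of 25 cell cycle genes only 4 reached 20 UMIs.

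Leukocyte adhesion and inflammatory lists lay near the 54.9% of all genes that were higher. Of 17 adhesion genes 11 were higher, with a median of 0.18, led by Vcam1 and Selp, the P-selectin gene, at 1.00 (-0.14 to 2.28). Outside the mixed sub-clusters 9 of 13 adhesion genes were higher, beside 2584 of all 4669 genes measured there, with a median of 0.31. Icam1 had 34 and 76 UMIs, a log2 ratio of 0.63 (0.03 to 1.26), and Cxcl12, a chemokine of capillaries and arteries, stood at -0.59 (-1.02 to -0.17). Of 22 cytokine-response genes 14 were higher, with a median of 0.17, and 9 of 19 outside the mixed sub-clusters, with a median of -0.10. Ch25h, an oxysterol enzyme, had 58 and 165 UMIs, a log2 ratio of 0.97 (0.54 to 1.43), against -0.79 in other nuclei. Rela, a subunit of NF-kappaB, had 3 and 23 UMIs, a log2 ratio of 2.41 (0.68 to 4.78).

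Interferon-response genes were higher in 20 of 25 cases, against 54.9% of all genes measured, with a median of 0.29. In other nuclei the same genes had a median of 0.36. Isg15, a ubiquitin-like protein, had 23 UMIs in 16 PBS nuclei and 96 in 56 AEVs nuclei, a log2 ratio of 1.53 (0.86 to 2.25), against 0.23 in other nuclei. Xaf1 stood at 1.64 (0.63 to 2.79) and Oasl2 at 1.32 (0.51 to 2.22). Of 8 class I and II antigen presentation genes 7 were higher, none past 2-fold. Outside the mixed sub-clusters 4 of 8 were higher, beside 2584 of all 4669 genes measured there, with a median of 0.08.

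Steroid-responsive and metabolic genes followed other nuclei in part. Of 22 glucocorticoid-responsive genes 16 were higher, against 54.9% of all genes measured, and 13 of 22 outside the mixed sub-clusters. The list had a median of 0.31, against 0.76 for the same genes in other nuclei. Sult1a1, a sulfotransferase, had 6 and 50 UMIs, a log2 ratio of 2.53 (1.30 to 4.04), with 2.15 in other nuclei, and Hif3a stood at 2.12 (0.96 to 3.51) with 2.02. Errfi1, an inhibitor of the EGF receptor, was lower, with 116 and 55 UMIs, a log2 ratio of -1.61 (-2.10 to -1.14), and -0.33 in other nuclei. Ctla2a, a protease inhibitor of endothelium, had 203 and 600 UMIs, a log2 ratio of 1.03 (0.80 to 1.27), against -0.07 elsewhere.

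Apod and Ptgds, secreted lipid carriers that other cells of the cord make in bulk, were higher in AEVs members and in other nuclei. Apod stood at 1.64 (1.48 to 1.80) in endothelial nuclei, at 2.16 in other nuclei and at 0.14 outside the mixed sub-clusters. Ptgds stood at 0.63, at 1.27 and at 0.06. Basement membrane genes were even, 9 of 17 higher beside 54.9% of all genes measured, with a median of 0.02. Fn1, fibronectin, had 125 and 269 UMIs, a log2 ratio of 0.57 (0.26 to 0.89), while its ratio in other nuclei was -0.97.

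**Figure D5:**
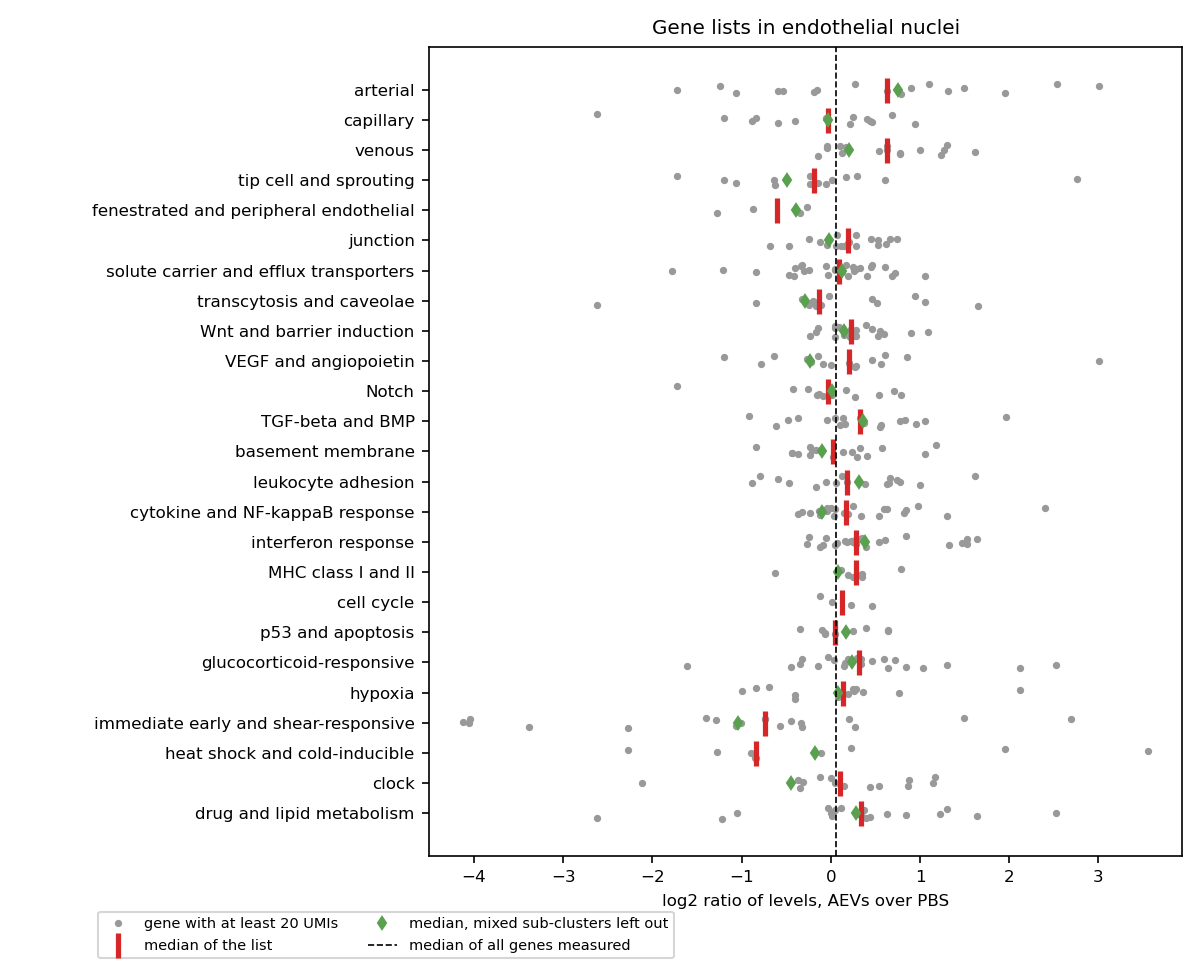
Log2 ratio of levels, AEVs over PBS, of each gene with at least 20 UMIs (grey points) by gene list, with the list's median (red bar), the median without the mixed sub-clusters (green diamond) and the median of all genes measured (dashed line, 0.06). The list of immediate early and flow-responsive genes has its median at -0.74, below those of the junction list (0.19) and the venous list (0.63).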

How the data were processed

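The authors deposited unscaled UMI counts for each barcode. Genome build mm10 and Seurat are named, per the submitters' processing notes. The aligner, annotation and any removal of doublets or ambient RNA were not given in the sources used here. Nuclei with at least 500 UMIs, at least 300 genes and under 5% mitochondrial UMIs were kept. Scrublet (scanpy 1.11.5) called 771 PBS and 1400 AEVs doublets, which were kept, since the rule does not remove them, and left out in an alternative. Counts were summed over the nuclei of a library and divided by their total. The 95% intervals cover counting error alone: exact Poisson for a level, conditional binomial for a ratio, Clopper-Pearson for a share. The ratio interval was run on simulated independent Poisson counts, which is the setting it assumes. That run therefore does not cover UMIs that gather in a few nuclei, as those of Mgp did. Sub-clusters came from 1000 variable genes, 15 components, 15 neighbours and Leiden at resolution 0.5 (igraph 0.11.9). Mixed sub-clusters were those whose endothelial markers outside the rule summed to under 0.5 of the highest sub-cluster. Named genes were the 10 highest and 10 lowest ratios with at least 30 UMIs in the higher library, in at least 5% of its members and at 0.5 or more of the level in its other nuclei, without mitochondrial, ribosomal, hemoglobin, predicted and rule genes, and the members of the gene lists. The members and lists were chosen with earlier results of these data known. Alternatives covered the rule, depth, doublets, scaling (edgeR 4.0.16 TMM) and low-count filters. Some genes of the lists are counted in them but not reported here by name. Promoters are RefSeq sequences of GRCm38.p6.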

Additional observations from a re-analysis of the deposited data

Results flagged for a closer look

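For each gene here the level was at least 2-fold higher in AEVs endothelial nuclei, with a counting interval above equal levels, while the ratio in all other nuclei lay on the opposite side. Vegfc and Ctla2a also met this description and are not listed here. Their ratios in other nuclei lay nearer to equal levels, at -0.04 for Vegfc. With 1 library a group, the difference was not tested. Mgp stood at 2.53 in endothelial nuclei and at -0.64 in other nuclei on the log2 scale. Bmp4 stood at 1.97 and -0.23, and rested on 3 PBS and 17 AEVs UMIs. Gpnmb, a gene of phagocytes, stood at 1.71 and -0.16. Ehd4 stood at 1.66 and -0.18. Lhfpl3, a gene of oligodendrocyte precursors, stood at 1.15 and -0.29. Adgra2 stood at 1.09 and -0.23. Of the 71 AEVs UMIs of Gpnmb, 58 lay in 1 nucleus. Outside the mixed sub-clusters Gpnmb stood at 0.43 and Lhfpl3 at -0.67.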

How the results depend on the processing

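No paired analysis was possible because each group has 1 library, and for the same reason no replicate could be left out. The ratio of shares of 1.39 moved to 1.10 without limits on other cells' genes and to 1.11 without the fibroblast limit. The count of genes at least 2-fold lower, 357 of 7271 measured, became 213 of 3975 with 0 UMIs of the limited genes, 591 of 8954 without the fibroblast limit and 167 of 4669 without the mixed sub-clusters. Thinning to 1000 UMIs gave 247 higher and 174 lower of 3497, a filter of 50 UMIs 122 and 132 of 3652, and a filter of 1 UMI 3716 and 2701 of 16568. The arterial ratio of 1.09 moved to 2.06 with zone genes at least 4-fold above other nuclei. The other 55 values of this kind moved by less than 1.5 times or less than their counting interval. The log2 ratio of Nefh turned to 1.28 with 0 UMIs of the limited genes, where it rested on 12 UMIs. The cause of the other changes was not tested. Among single genes and other lists 793 values stayed, 92 moved and 1 reversed. Fos ranged from -5.21 to -1.57, Egr1 from -4.39 to -1.67, Nr4a1 from -4.25 to -1.43, Apold1 from -4.26 to -3.12, Vegfc from 0.58 to 3.32, C1qbp from 0.90 to 3.85, Prss23 from 1.32 to 4.76, Slco1a4 from 0.47 to 1.20 and Vcam1 from 1.13 to 1.77. The immediate early median ranged from -1.23 to -0.51. TMM shifted every ratio by -0.02. The limits changed, the barcodes left out, the mixed sub-clusters left out, the 4-fold zone genes and the values without sub-cluster 5 were chosen after seeing the data.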

Other observations

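Ccl21a, a chemokine of lymphatic endothelium, had 65 of its 69 PBS UMIs in 1 nucleus and 0 UMIs in AEVs endothelial nuclei. The lymphatic factor Prox1 had 15 PBS and 17 AEVs UMIs. Erythroid genes were higher in AEVs endothelial nuclei, with 4 of 4 measured genes past 2-fold and a median log2 ratio of 1.44, against 1.21 in other nuclei. Of 14 clock genes measured 9 were higher, beside 54.9% of all genes, with a median of 0.10, and 3 of 8 outside the mixed sub-clusters, with a median of -0.45. The same genes had a median of 0.17 in other nuclei. Npas2 had 18 PBS and 6 AEVs UMIs, a log2 ratio of -2.12 (-3.74 to -0.72), with 9 of the PBS UMIs in 1 nucleus. Cry2 had 8 and 26 UMIs, a log2 ratio of 1.17 (-0.02 to 2.52).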
